A study of Homo sapiens with 6 samples.

Results

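The replacement histone variants are histone genes that are read outside as well as inside S phase and whose mRNAs mostly carry a poly(A) tail. The 9 genes H1-10, H2AX, H2AJ, H2AZ1, H2AZ2, H3-3A, H3-3B, MACROH2A1 and MACROH2A2 were taken by symbol from the 24960 genes of the count table. They were followed in K562 cells, a suspension line established from CML and carrying BCR-ABL1, in 3 control libraries and 3 libraries from cells given hyperoside (2 mM), a flavonol glycoside. The 6 libraries share the line, the Trizol extraction of total RNA and the library kit. The labels give bone as the tissue and do not say whether the replicates were separate cultures, so p-values measure the spread between these libraries, which may be technical. The time from hyperoside addition to extraction is not given in the sources used here, and a single line limits the comparison to that line.

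The replication-dependent histones are made in bulk during S phase from clustered genes without introns, and their mRNAs end in a stem-loop instead of a poly(A) tail. Replacement variants are built into nucleosomes at other times and by chaperones of their own. Variant H3.3 marks active genes and is also laid down at telomeres, H2A.Z sits beside active start sites, H2AX is phosphorylated around DNA breaks, macroH2A carries a large extra domain and is known for silent chromatin, and H1-10 (also H1.10 or H1X) is a linker histone that binds the DNA between nucleosomes.

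Gene counts summed to 35613283 to 36754725 per library, and 15095 genes passed the filter on low counts and were tested. Levels below are normalized CPM, counts scaled to the library's size and TMM factor, with all values given in the order of replicates 1, 2 and 3. Control replicate 1 differed most from its group, with a chi-square per degree of freedom of 20.3 to 23.1 against the other controls and 6.34 between those. All 7 of the fixed K562 markers, such as GATA1, TAL1 and HBG2, averaged over 10 CPM, and their summed level was 2266 to 2931 CPM in the control group and 1637 to 1977 CPM in the hyperoside group. The part of this shift in the results below was not tested. None of the 3 B cell and 3 stromal markers averaged over 10 CPM, whereas CD3D of the 3 T cell markers and EPCAM and KRT8 of the 3 epithelial markers did. Of the 4 megakaryoblastic or platelet markers, 2 were among the genes counted, and only ITGA2B averaged over 10 CPM.

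Genes of a pair that encode the same protein (H3.3) or near-identical proteins (H2A.Z) differ enough in sequence to be counted apart. H3-3A and H3-3B give the same H3.3 protein, yet their reading frames of 411 bases matched at 323 positions (78.6%), and 77 of the 88 differences fell on the third base of a codon. The longest run shared by their longest principal GENCODE 29 transcripts was 14 bases. The reading frames of H2AZ1 and H2AZ2, of 387 bases each, matched at 311 positions (80.4%), with a longest shared run of 23 bases. The first 90 bases of each frame are shown from the start codon, with capitals where the genes of a pair differ.
H3-3A: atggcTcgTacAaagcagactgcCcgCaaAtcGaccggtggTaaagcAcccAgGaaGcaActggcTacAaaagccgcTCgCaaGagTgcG
H3-3B: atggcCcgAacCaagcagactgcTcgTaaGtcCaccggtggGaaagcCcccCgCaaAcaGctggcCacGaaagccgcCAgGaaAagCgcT
H2AZ1: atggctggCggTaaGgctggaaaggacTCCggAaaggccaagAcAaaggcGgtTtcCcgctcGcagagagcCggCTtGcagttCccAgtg
H2AZ2: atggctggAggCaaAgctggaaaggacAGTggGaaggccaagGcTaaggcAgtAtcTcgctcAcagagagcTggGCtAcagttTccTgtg
The stretches differed at 21 bases between H3-3A and H3-3B and at 19 between H2AZ1 and H2AZ2. Processed copies are another source of shared reads, since GENCODE 29 names 6 pseudogenes of H3-3A, 2 of H3-3B, 6 of H2AZ1 and 1 of H2AZ2. How reads that match a gene and its copy were counted is not stated, so the counts of these 4 genes are uncertain to that extent.

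Promoters are shown for the called member with the largest fall (H1-10), for H2AX, whose mRNA can also end in a stem-loop, and for the H3.3 pair, whose genes moved in opposite directions. Each window is from RefSeq on GRCh38.p14, runs from 250 bases before to 50 bases after an annotated start and is written in the direction of transcription, with capitals on the CCAAT box, the TATA box letters TATAAA and the GC box letters GGGCGG on either strand. All 9 genes had a window, and where a gene had several the window with most GENCODE transcript starts was taken.
H1-10, chr3:129316237-129316536, minus strand: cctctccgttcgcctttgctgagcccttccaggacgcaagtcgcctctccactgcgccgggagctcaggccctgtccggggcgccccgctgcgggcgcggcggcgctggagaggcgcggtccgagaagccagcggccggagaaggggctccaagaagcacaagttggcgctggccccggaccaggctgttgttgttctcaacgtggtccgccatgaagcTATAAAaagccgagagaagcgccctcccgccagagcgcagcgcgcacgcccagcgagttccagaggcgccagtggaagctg
H2AX, chr11:119095416-119095715, minus strand: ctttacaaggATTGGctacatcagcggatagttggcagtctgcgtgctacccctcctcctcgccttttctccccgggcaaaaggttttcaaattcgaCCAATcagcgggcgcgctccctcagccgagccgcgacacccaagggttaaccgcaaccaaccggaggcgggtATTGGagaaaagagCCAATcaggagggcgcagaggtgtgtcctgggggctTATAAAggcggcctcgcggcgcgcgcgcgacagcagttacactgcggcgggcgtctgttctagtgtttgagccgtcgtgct
H3-3A, chr1:226062466-226062765, plus strand: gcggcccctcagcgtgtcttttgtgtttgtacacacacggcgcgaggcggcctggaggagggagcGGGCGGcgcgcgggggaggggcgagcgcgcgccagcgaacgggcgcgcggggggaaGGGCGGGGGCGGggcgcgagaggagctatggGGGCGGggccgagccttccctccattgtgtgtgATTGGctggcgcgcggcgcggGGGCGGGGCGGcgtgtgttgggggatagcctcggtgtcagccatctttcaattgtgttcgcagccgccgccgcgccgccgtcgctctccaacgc
H3-3B, chr17:75779730-75780029, minus strand: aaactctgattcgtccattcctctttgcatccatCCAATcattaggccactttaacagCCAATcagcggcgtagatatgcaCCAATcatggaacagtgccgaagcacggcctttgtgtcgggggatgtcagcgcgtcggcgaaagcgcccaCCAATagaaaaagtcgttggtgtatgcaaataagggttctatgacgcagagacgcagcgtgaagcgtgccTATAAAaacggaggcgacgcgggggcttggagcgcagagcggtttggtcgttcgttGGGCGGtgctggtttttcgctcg
CCAAT was found 4 times in the windows of H2AX, H3-3B and H2AZ2, 3 times in those of H2AZ1 and H2AJ and once in that of H3-3A. Of all 35116 promoter windows, 34.6% held it at least once and 0.991% at least 4 times. TATAAA stood 29 to 31 bases before the start in H1-10, H2AX, H2AZ1 and H3-3B and was held anywhere in the window by 11.5% of all promoters. GGGCGG was found 6 times in H3-3A, some of them overlapping in their letters, and once in H3-3B after the start. Of all promoters, 45.0% had at least 1 match and 9.06% at least 4. H3-3A and H3-3B therefore differed in the number of each of the 3 motifs. Of the 4 genes with TATAAA, H1-10 and H2AX fell, H3-3B rose and H2AZ1 was lower without passing the test. The matches describe letters in these windows and were not tested against the changes.

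Of the 7 members that passed the filter, 3 fell with hyperoside and 2 rose at an adjusted p under 0.05. H1-10, H2AX and H3-3A were the lower ones, and MACROH2A1 and H3-3B the higher ones, while H2AZ1 and H2AZ2 did not pass. The background over the 15095 genes was 23.2% in the lower and 22.1% in the higher direction. No member changed more than 2-fold, the threshold of the study for a DEG, which 10.2% of all tested genes passed. The normalized CPM of the groups did not overlap for 7 of 7 tested members, as was the case for 54.4% of all tested genes. H2AJ and MACROH2A2 did not pass the filter, so counts over the 7 do not speak for all 9.

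**Figure D1:**
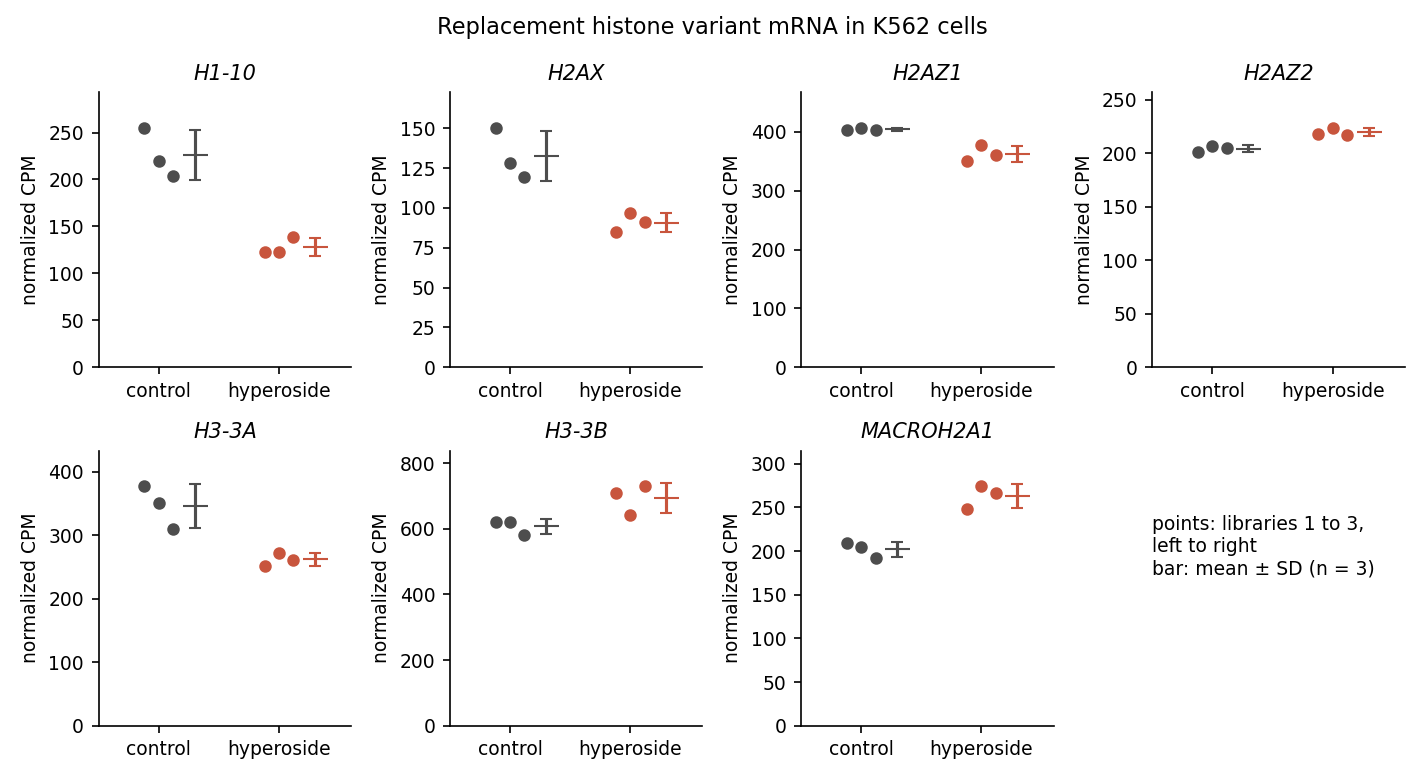
Normalized CPM of the 7 tested replacement variants in each library, with mean ± SD (n = 3) beside the points and the y axis starting at 0. The 3 hyperoside libraries lie below the 3 control libraries for H1-10, H2AX, H2AZ1 and H3-3A and above them for H2AZ2, H3-3B and MACROH2A1.

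H1-10 showed the largest change of the 7 tested members. The control libraries held 255, 219 and 204 CPM, and the hyperoside libraries 122, 123 and 139 CPM. The lowest control library was 64.9 CPM above the highest hyperoside library, a gap wider than the range of either group. The means were 226 ± 26.3 and 128 ± 9.22 CPM (SD, n = 3), a log2 fold change of -0.82 (SE 0.09, adjusted p = 6.26e-07), so the level fell by 43.3%. Control replicate 1 was the highest library, and without it the log2 fold change was -0.72. H1-10 (NCBI gene 8971) is a gene of chromosome 3 (chr3:129314771-129316286 on GRCh38.p14, minus strand) that shares 16 bases of its span with the antisense gene H1-10-AS1. That gene lay under 0.5 CPM in every library, so it could add little to the counts.

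H2AX supplies the H2A form that ATM, ATR and DNA-PK phosphorylate at DNA breaks. Its level was 150.2, 128 and 119 CPM in the control libraries and 84.8, 96.5 and 91.0 CPM in the hyperoside libraries, with every control library above every hyperoside library. The means of 133 ± 15.9 and 90.8 ± 5.86 CPM (SD, n = 3) gave a log2 fold change of -0.55 (SE 0.09, adjusted p = 6.46e-05), so the level fell by 31.6%. Without control replicate 1, the highest library, it was -0.45.

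H2AX is unlike the other members in its mRNA, since it can be processed at a histone stem-loop in S phase or run on to a poly(A) site. The stem-loop consensus was found in its GENCODE 29 transcript alone among the protein-coding transcripts of the 9 genes, 49 bases after the stop codon, and is shown as DNA with the paired arms in capitals.
H2AX stem-loop: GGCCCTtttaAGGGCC
The annotated transcript goes on for 1044 bases beyond it. The same consensus was found in 0.162% of all 83129 protein-coding transcripts and in 32 of the 71 genes that GENCODE 29 names as members of the histone clusters. The counts do not separate the short from the long H2AX mRNA. RefSeq also places the whole H2AX span (chr11:119093874-119095465 on GRCh38.p14, minus strand) inside that of DPAGT1, a gene of N-glycan synthesis. DPAGT1 held 73.9 ± 5.28 CPM in the control group and 54.8 ± 3.59 CPM in the hyperoside group (log2 fold change -0.43, SE 0.08, adjusted p = 4.58e-04). Only the spans were compared, not the exons, and the use of strand in counting is not stated. How reads of the shared stretch were assigned is therefore not known.

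The H2A.Z genes, H2AZ1 (chr4:99948088-99950275) and H2AZ2 (chr7:44826889-44848126, both on the minus strand of GRCh38.p14), did not pass the test. H2AZ1 held 403, 407 and 403 CPM in the control libraries and 351, 377 and 360.0 CPM in the hyperoside libraries, without overlap. Its log2 fold change was -0.16 (SE 0.07, adjusted p = 0.0585), and the 95% interval, from the SE by a normal approximation, ran from -0.28 to -0.03. DESeq2 (adjusted p = 0.0349), limma-voom (0.0460) and the fit without control replicate 1 (0.0373) put H2AZ1 under the threshold. H2AZ2 held 201, 207 and 205 CPM in the control libraries and 218, 224 and 217 CPM in the hyperoside libraries. Its log2 fold change was 0.10 (SE 0.07, adjusted p = 0.208), with an interval from -0.02 to 0.23. The groups did not overlap for H2AZ2 either, with 10.5 CPM between the highest control and the lowest hyperoside library. On the FPKM scale, without between-library factors, H2AZ2 passed with a log2 difference of 0.15 (limma-trend, adjusted p = 0.0428 with 1 added).

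The within-library ratio of H2AZ1 to H2AZ2 removes what a library does to both genes alike. The log2 ratio of their FPKM values was 3.88, 3.85 and 3.85 in the control libraries and 3.56, 3.63 and 3.60 in the hyperoside libraries. The size of this ratio rests on the FPKM gene lengths, with H2AZ2 taken at 8.43 times its longest principal transcript. These lengths cancel in the shift between groups. All 3 hyperoside ratios lay below all 3 control ratios, with a difference of -0.26 between the means. The two-sided exact permutation test gave p = 0.1, the smallest value that 3 against 3 libraries allow, and 0.1 after adjustment over the 2 pairs tested. The summed level of the H2A.Z genes was 604, 614 and 608 CPM in the control libraries and 569, 601 and 577 CPM in the hyperoside libraries, 95.7% of the control mean.

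MACROH2A1 was the member with the largest rise. The control libraries held 209, 205 and 193 CPM and the hyperoside libraries 248, 274 and 267 CPM, so every treated library was above every control. The means of 202 ± 8.55 and 263 ± 13.5 CPM (SD, n = 3) gave a log2 fold change of 0.38 (SE 0.07, adjusted p = 2.77e-04), or 30.0% higher. Leaving out 1 library at a time gave 0.34 to 0.42, all past the threshold. The gene makes the splice forms macroH2A1.1 and macroH2A1.2, of which only the former binds ADP-ribose, and counts per gene do not separate them. MACROH2A1 (chr5:135334381-135399887 on GRCh38.p14, minus strand) shares 15.7% of its span with the noncoding gene PITX1-AS1, which rose as well, from 7.62 ± 1.18 to 11.5 ± 1.32 CPM (log2 fold change 0.60, SE 0.15, adjusted p = 0.00348).

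The H3.3 genes moved in opposite directions. H3-3A lies on the plus strand (chr1:226061831-226072019 on GRCh38.p14) and H3-3B on the minus strand (chr17:75776434-75779779). H3-3A held 377, 351 and 309 CPM in the control libraries and 252, 273 and 261 CPM in the hyperoside libraries, without overlap. The means were 346 ± 34.2 and 262 ± 10.2 CPM (SD, n = 3), a log2 fold change of -0.40 (SE 0.08, adjusted p = 3.86e-04). H3-3B held 622, 619.7 and 581 CPM in the control libraries and 708, 642 and 729 CPM in the hyperoside libraries. Here hyperoside replicate 2 was only 20.5 CPM above the highest control, while the other treated libraries were well clear of it. The means were 607 ± 23.2 and 693 ± 45.4 CPM, a log2 fold change of 0.19 (SE 0.07, adjusted p = 0.0315).

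The rise of H3-3B is the least secure of the 5 calls. It was lost without control replicate 2 (adjusted p = 0.0683), control replicate 3 (0.120), hyperoside replicate 1 (0.126) or hyperoside replicate 3 (0.0979), with log2 fold changes of 0.16 to 0.20 in these fits. The fall of H3-3A passed in all 15 alternatives.

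Set against each other within a library, the H3.3 genes gave a log2 ratio of H3-3A to H3-3B, in FPKM, of 0.14, 0.04 and -0.05 in the control libraries and of -0.63, -0.38 and -0.62 in the hyperoside libraries. The ratio shifted by -0.59 between the means, without overlap (two-sided exact permutation test, p = 0.1, the smallest possible, and 0.1 adjusted over 2 pairs). H3-3B accounted for 47.6%, 49.3% and 50.9% of the H3.3 FPKM in the control libraries and for 60.8%, 56.5% and 60.6% in the hyperoside libraries. The sum of the pair showed no such step. It was 461, 459 and 423 FPKM in the control libraries and 441, 427 and 448 FPKM in the hyperoside libraries, with overlapping groups and a hyperoside mean at 98.0% of the control mean.

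**Figure D2:**
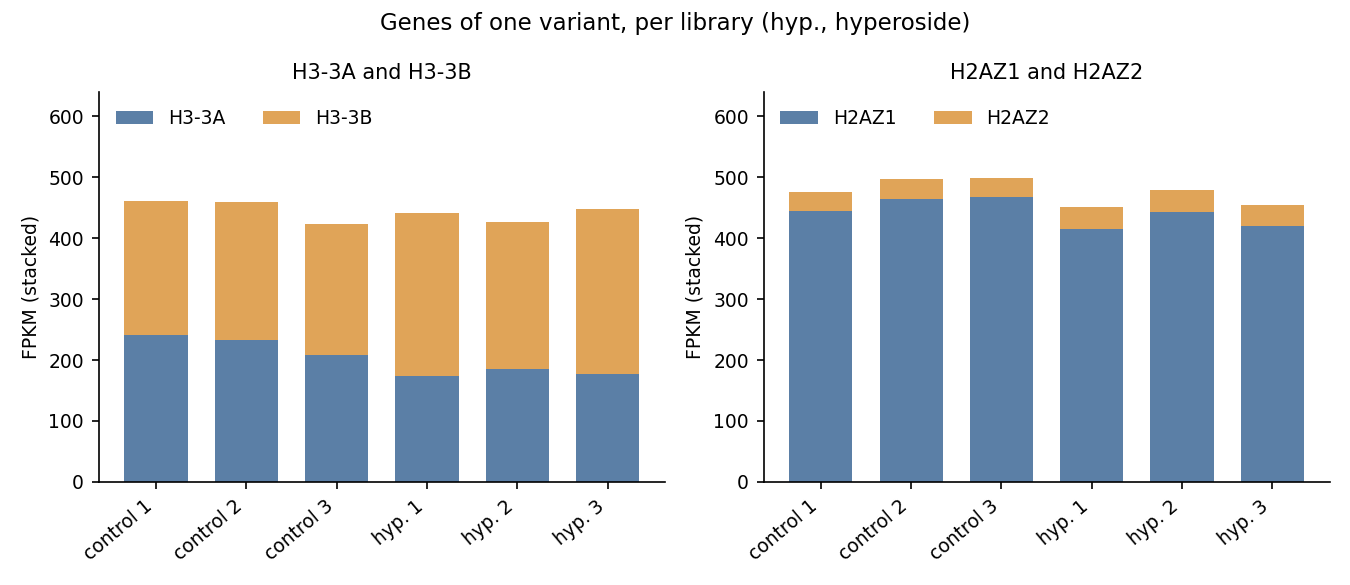
FPKM of H3-3A and H3-3B (left) and of H2AZ1 and H2AZ2 (right), stacked for each of the 6 libraries. The H3.3 bars reach 423 to 461 FPKM in every library while the H3-3B part grows from 47.6-50.9% to 56.5-60.8%, and the small H2AZ2 part depends on the gene length used in the FPKM values.

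H2AJ (chr12:14774405-14778002) and MACROH2A2 (chr10:70052846-70112282, both on the plus strand of GRCh38.p14) were at or near the limit of detection. H2AJ, an H2A variant known for accumulating in senescent cells, had 5, 1 and 0 counts in the control libraries and 0, 0 and 0 in the hyperoside libraries. MACROH2A2, the second macroH2A gene, had 0, 0 and 1 counts in each group. A count of 0 allows up to 3 counts, or 0.0817 to 0.0853 CPM per library, counting error only, so no fold change is given and a lower level of H2AJ was not detectable at this depth. With no filter the adjusted p was 0.176 for H2AJ. A ratio of MACROH2A1 to MACROH2A2 could not be formed, and at these levels MACROH2A1 supplied nearly all macroH2A reads.

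**Figure D3:**
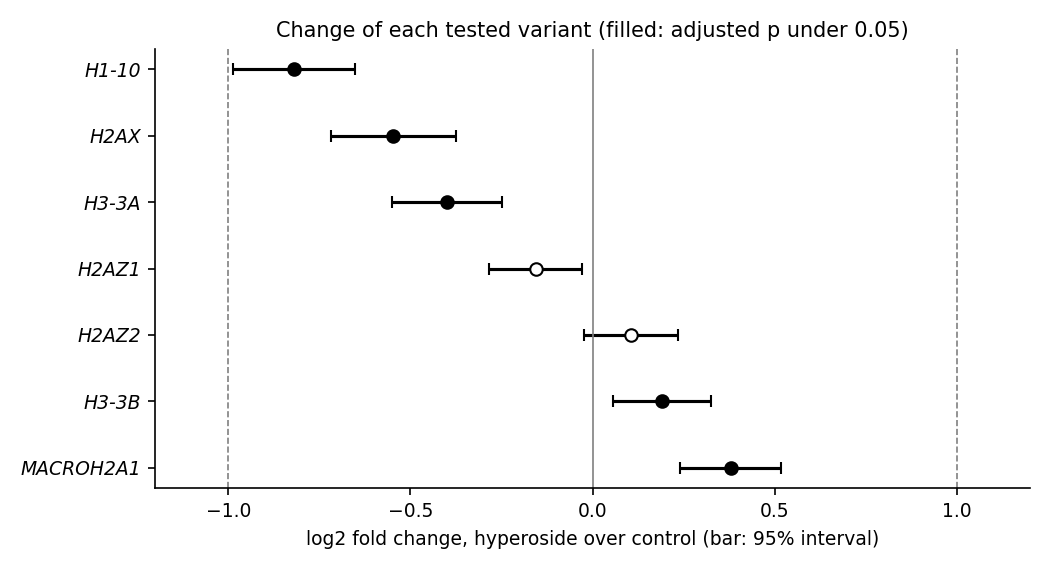
Log2 fold change of each tested member, hyperoside over control, with bars for the 95% interval, filled points for an adjusted p under 0.05 and dashed lines at a 2-fold change. Values run from -0.82 for H1-10 to 0.38 for MACROH2A1, and no point reaches a dashed line.

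The order of the members by level per length was led by H2AZ1, at 459 ± 11.7 FPKM in the control group. H3-3A (227 ± 17.5 FPKM) and H3-3B (221 ± 5.53 FPKM) followed and overlapped between control libraries. H1-10 (146 ± 13.4 FPKM), H2AX (81.7 ± 7.73 FPKM), H2AZ2 (31.7 ± 1.17 FPKM) and MACROH2A1 (15.3 ± 0.37 FPKM) came next, each apart from its neighbour, with H2AJ and MACROH2A2 at the floor. In the hyperoside group H3-3B (260.5 ± 16.6 FPKM) stood apart from and above H3-3A (179 ± 6.54 FPKM), and the order was otherwise unchanged among the 7 tested genes.

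The low place of H2AZ2, and how far MACROH2A1 stood below the others, rest on the gene lengths behind the FPKM values. The deposited counts and FPKM values imply 6340 bases for H2AZ2 and 12948 for MACROH2A1, which are 8.43 and 4.64 times the longest principal GENCODE 29 transcript. For the other members the same ratio was 0.885 to 1.14. With normalized CPM per kilobase of that transcript, H2AZ2 in the control group came to 272 ± 4.03, second to H2AZ1 (413 ± 2.23) and overlapping with H3-3A (264 ± 26.2). MACROH2A1 came to 72.5 ± 3.07 and kept place 7 in the control group, though overlapping with H2AX (82.2 ± 9.83). In the hyperoside group its 94.3 ± 4.84 was above H2AX (56.3 ± 3.63). The length cancels in each gene's own fold change but not in comparisons between genes.

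**Figure D4:**
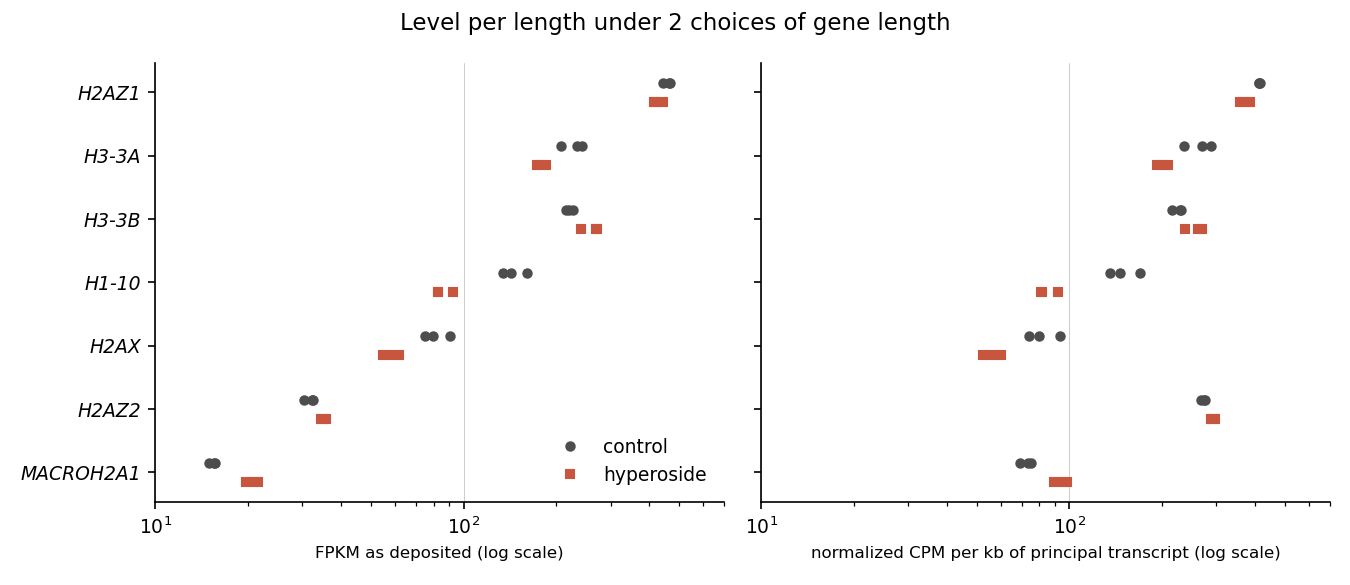
Level per length of the 7 tested members in each library on a log axis, as deposited FPKM (left) and as normalized CPM per kilobase of the longest principal transcript (right). H2AZ2 moves from 30.3-35.9 FPKM to 267-298 CPM per kilobase, and MACROH2A1 from 14.9-21.5 FPKM to 69.1-98.3 CPM per kilobase.

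Summed over the 9 genes, replacement variants held 1204, 1194 and 1147 FPKM in the control libraries and 1049, 1072 and 1073 FPKM in the hyperoside libraries, 90.1% of the control mean. In normalized CPM the sums overlapped (2013 to 2217 against 1984 to 2064 CPM). The 61 replication-dependent histone genes of the table held 4311, 3958 and 3771 FPKM in the control libraries and 2506, 2336 and 2538 FPKM in the hyperoside libraries, 61.3% of the control mean. Of their 39 tested genes 26 were called lower and 1 higher (2 with limma-trend on FPKM), beside 23.2% and 22.1% of all tested genes. Their median log2 fold change was -0.74, beside -0.16 for the 7 replacement variants and 0.00 for all tested genes. Whether poly(A) selection was used is not given in the sources used here and its part in these sums was not tested.

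Within classes, the share of the replacement genes moved with these sums. H3-3A and H3-3B held 63.9%, 67.4% and 66.9% of this H3 FPKM in the control libraries and 77.7%, 79.1% and 77.2% in the hyperoside libraries. The 6 H2A variants held 60.2% to 61.4% of H2A FPKM in the control group and 67.7% to 71.0% in the hyperoside group. With these 6 genes rescaled to their principal transcripts, on account of the long H2AZ2 and MACROH2A1 lengths, the shares were 68.1% to 69.2% and 76.2% to 78.9%. H1-10, by contrast, held 6.89% to 7.07% of H1 FPKM in the control group and 6.15% to 6.69% in the hyperoside group. None of these shares overlapped between groups, and they are given with no test. In bulk RNA, fewer cells in a phase of the cycle and less mRNA per cell cannot be told apart.

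The genes that place or read the variants did not move in 1 direction. Of all tested genes, 22.1% were called higher and 23.2% lower, the background for the counts of each list below. Of the 7 H3.3 depositors, 1 rose and 2 fell, and the list median was -0.10. The number called higher was 2 without control replicate 3, with upper-quartile factors or with no filter. ATRX, which works with DAXX at telomeres, had a log2 fold change of 0.39 (SE 0.12, adjusted p = 0.0171), CABIN1 of the HIRA complex -0.56 (SE 0.08, adjusted p = 2.81e-05) and the H3-H4 chaperone ASF1A -0.27 (SE 0.09, adjusted p = 0.0242). HIRA itself was at -0.02 and DAXX at -0.20, neither past the threshold. The ATRX controls held 21.5, 33.2 and 31.1 CPM, with replicate 1 well below the others, and without that library its log2 fold change was 0.22 (adjusted p = 0.0362). The ATRX call was lost without hyperoside replicate 1 (adjusted p = 0.0550) or 3 (0.0513) and with limma-trend on FPKM with 1 (0.0684) or 0.1 (0.0685) added. ASF1A was lost with library totals alone (adjusted p = 0.0702), with upper-quartile factors (0.0526), with limma-trend on FPKM with 1 (0.0696) or 0.1 (0.0647) added, and without control replicate 3 (0.0763), hyperoside replicate 2 (0.0608) or hyperoside replicate 3 (0.161).

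The H2A.Z exchangers, subunits of the SRCAP, p400-TIP60 and INO80 complexes with the H2A.Z remover ANP32E, had 7 of 17 genes called higher and 4 called lower, with a median of 0.03. ACTR6, an actin-related subunit of SRCAP, was the only one past 2-fold, at 50.5, 59.4 and 65.7 CPM in the control libraries and 27.4, 24.5 and 22.0 CPM in the hyperoside libraries. Its log2 fold change was -1.25 (SE 0.11, adjusted p = 6.60e-08). ACTL6A, a subunit shared with BAF complexes, fell by 0.38 on the log2 scale (SE 0.08, adjusted p = 0.00129). DMAP1 rose by 0.76 (SE 0.11, adjusted p = 1.50e-05) and the ATPase INO80 by 0.67 (SE 0.09, adjusted p = 5.66e-06).

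Of the 7 macroH2A partners, 2 rose and 3 fell. The RNA helicase DDX5, which takes part in macroH2A1 splicing, rose by 0.38 (SE 0.07, adjusted p = 3.38e-04) and its paralog DDX17 by 0.20 (SE 0.07, adjusted p = 0.0207, and 0.0968 without hyperoside replicate 1). PARP1, whose product macroH2A1.1 binds, fell by 0.49 (SE 0.07, adjusted p = 3.04e-05), and the remodeller HELLS fell by 0.48 (SE 0.12, adjusted p = 0.00316), a call lost with limma-trend on FPKM with 1 (-0.30, adjusted p = 0.0894) or 0.1 (-0.40, 0.0882) added. QKI, another splicing factor of macroH2A1, was at 0.06 (adjusted p = 0.636).

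Among the 11 kinases and readers of H2AX, 3 rose and 3 fell, with 1 called lower without control replicate 2 or hyperoside replicate 1. The kinase ATM held 55.1, 74.8 and 76.8 CPM in the control libraries and 119.9, 116 and 111 CPM in the hyperoside libraries (log2 fold change 0.75, SE 0.10, adjusted p = 1.12e-05). PRKDC, the catalytic subunit of DNA-PK, was at 0.26 (SE 0.07, adjusted p = 0.00884, and 0.0645 without hyperoside replicate 2). The ubiquitin ligase RNF8 was at -0.34 (SE 0.09, adjusted p = 0.00557, and 0.0543 without control replicate 2), and MDC1, which binds phosphorylated H2AX, at -0.25 (SE 0.07, adjusted p = 0.00760, and 0.0546 without hyperoside replicate 1). These are mRNA levels, and phosphorylation of H2AX was not measured here.

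General histone chaperones had 1 of 13 genes called higher and 3 called lower. The number called higher was 4 without control replicate 1, 2 without hyperoside replicate 3, 0 without hyperoside replicate 2, 3 with upper-quartile factors, library totals or either FPKM fit, and 2 with the other size factors (RLE), no filter, DESeq2 or limma-voom. HJURP, the chaperone of the centromeric variant CENP-A, held 119, 107 and 94.7 CPM in the control libraries and 56.1, 57.8 and 57.5 CPM in the hyperoside libraries, a log2 fold change of -0.90 (SE 0.09, adjusted p = 2.08e-07). MIS18A, needed for CENP-A loading, was at -0.44 (SE 0.09, adjusted p = 4.33e-04). The elongation factor SUPT6H was at 0.22 (SE 0.07, adjusted p = 0.0123, and 0.0600 without hyperoside replicate 2). Of 13 further replacement and tissue variants, 10 were in the table and 2 passed the filter. CENPA itself was lower, at 34.9 ± 2.14 against 22.4 ± 0.63 CPM (log2 fold change -0.64, SE 0.09, adjusted p = 2.43e-05). H3-5, an intronless relative of H3-3B named here after its values were seen, was at 2.23 ± 0.78 and 2.63 ± 0.64 CPM (adjusted p = 0.556).

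Genes for the 3 prime processing of stem-loop histone mRNA had 1 of 7 called higher and 3 called lower. SLBP, which binds the stem-loop, was at -0.29 (SE 0.07, adjusted p = 0.00278), the U7 protein LSM11 at -0.65 (SE 0.10, adjusted p = 2.69e-05) and ZNF473 at 0.25 (SE 0.09, adjusted p = 0.0270, 0.0976 without control replicate 2 and 0.122 without hyperoside replicate 2). Of 15 DNA replication genes 1 was called higher and 3 lower, with a median of 0.00, and 3 were called higher without control replicate 1. TYMS was at 0.50 (SE 0.08, adjusted p = 9.01e-05), TOP2A at -0.39 (SE 0.07, adjusted p = 1.72e-04) and CCNE1 at -0.48 (SE 0.11, adjusted p = 0.00164). Among replication-dependent histones, H2BC21 and H4C9 had the smallest adjusted p on the lower side (log2 fold changes of -2.01 and -1.98), and H4C8 was the gene called higher (0.82, SE 0.11, adjusted p = 6.95e-06).

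**Figure D5:**
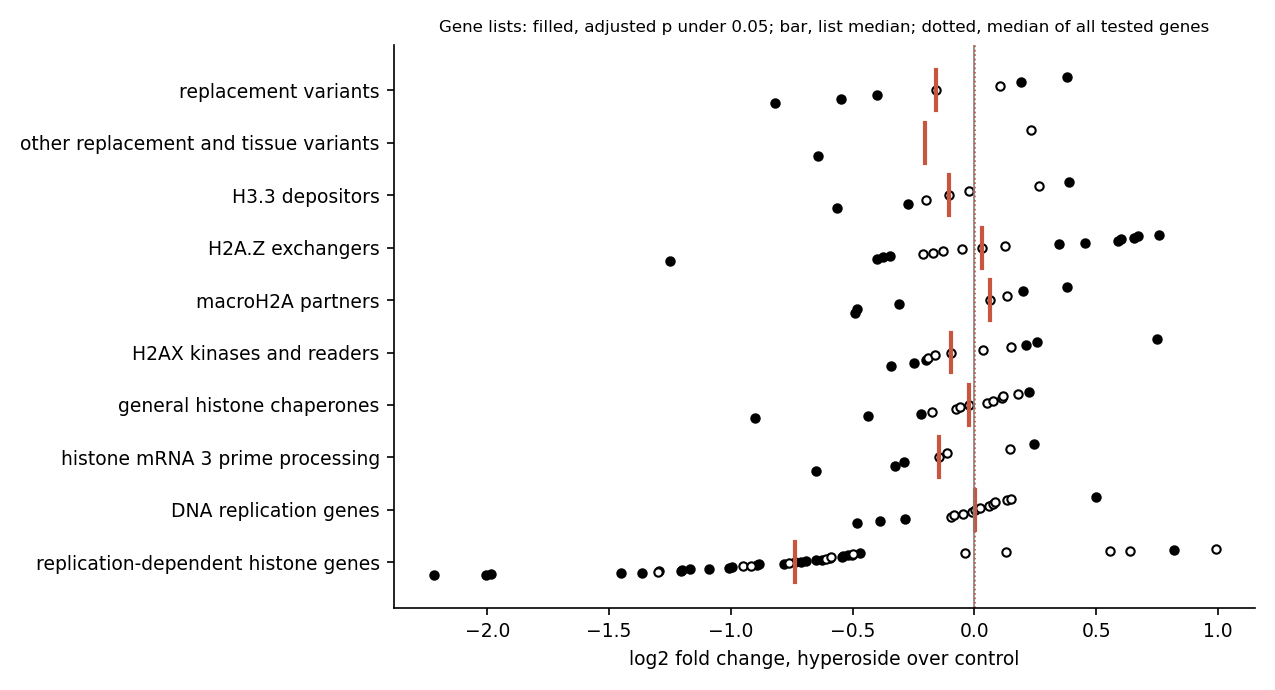
Log2 fold change of every tested gene of each list, hyperoside over control, with filled points for an adjusted p under 0.05, a bar at the list median and a dotted line at the median of all tested genes. Replication-dependent histone genes have a median of -0.74, whereas the medians of the other lists with at least 7 tested genes lie between -0.16 and 0.06.

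Over the 6 libraries, the genes most like H1-10 in centred log2 CPM were UBE2T, UBE2S and CTSH, at root mean square distances of 0.0389, 0.0421 and 0.0439. Their log2 fold changes were -0.87, -0.85 and -0.80. The genes most like MACROH2A1 were SKI, RIOX1 and SCAMP1-AS1, at distances of 0.0180, 0.0287 and 0.0297, with log2 fold changes of 0.39 in each case. These are the nearest of 15094 genes compared and are given as a description.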

How the data were processed

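RNA from 3 control and 3 hyperoside (2 mM) libraries of K562 cells was compared. The labels gave each library's group and replicate number, and the study's text gave the dose. Per the submitters' processing notes, fastp, HISAT2 and HTSeq were used with hg38, with no versions given. The authors deposited raw counts per gene and FPKM values, in which counts are scaled to gene length and library total. Library sums of 35613283 to 36754725 counts set the precision, and a count of 0 allows up to 3 counts.

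filterByExpr (minimum count 10, minimum total 15) kept 15095 genes. After TMM scaling, edgeR 4.0.16 (quasi-likelihood, R 4.3.3) compared the groups with no covariate, and Benjamini-Hochberg adjustment covered all genes tested. SE is the log2 fold change over the square root of F. Ratios of paralogs used two-sided exact permutation tests in scipy 1.17.1. Alternatives used DESeq2 1.42.0 and limma 3.58.1, other scalings, no filter, FPKM with 1 or 0.1 added, blocking on the replicate number and leaving out single libraries. The study's own test, DESeq, was not used. The steps were tested on simulated data. The text names all 9 members, from each list the 2 called genes of smallest adjusted p in each direction, and the 3 genes nearest to the members with the largest fall and rise. Members and lists were chosen with earlier results of these data known. H1-8, H2AB2 and H2AB3 were not analysed here. No measured column was left without a sample (0).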

Additional observations from a re-analysis of the deposited data

How the results depend on the processing

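All 7 tested members kept their direction under the 15 alternatives each, and H1-10, H2AX, H3-3A and MACROH2A1 also stayed past the threshold, with adjusted p up to 1.68e-04, 0.00139, 0.00590 and 0.00268. No shared effect of the replicate number was seen: same-numbered libraries deviated from their group means with correlations of -0.081, -0.033 and -0.034. With 3 libraries per group these values cannot decide whether the replicates were paired. With the replicate block H3-3B (0.19, adjusted p = 0.0829) was lost, leaving 1 member called higher, and 3026 genes were called higher and 3103 lower instead of 3333 and 3508. The replicate block also ended the calls of DDX17 (adjusted p = 0.0619) and ZNF473 (0.0650) and no other call among the members and the genes named from the lists. Leaving out each library in turn gave H3-3B 0.16 to 0.24, with 1 to 2 members called higher, and H2AZ1 -0.19 to -0.13, which passed without control replicate 1 (-0.16). H2AZ1 also passed with DESeq2 (-0.16) and limma-voom (-0.16), and H2AZ2 on log2(FPKM + 1) (0.15) and log2(FPKM + 0.1) (0.15), the cause not being tested. The log2 ratio of summed levels was -0.072 in normalized CPM against -0.15 in FPKM, where gene length weights the genes differently. Chosen after seeing the data, levels per kilobase of principal transcript changed the order of the members but not this ratio beyond the spread. No scaling moved the median of all genes by more than 0.1. H2AJ and MACROH2A2 were limited by depth.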
